A study of Mus musculus with 10 samples.

Results

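The 9 genes described here encode sperm proteins of the step at which a spermatozoon joins the egg: Izumo1, Izumo2, Izumo3, Izumo4, Spaca6, Tmem95, Dcst1, Dcst2 and Crisp2. They were chosen by name for their known roles, with earlier results of these data known, and are 9 of the 55421 genes in the count files. All 9 were read in 6 RNA-seq libraries of whole testes from P21 mice (postnatal day 21), and all 9 passed the filter on low values, with more than 1 RPM (reads of the gene in 1000000 reads on genes) in each of the 6 libraries. 3 libraries were from Mov10-/- mice (replicates 2, 3 and 4) and 3 from wild type mice (Mov10+/+, replicates 1, 2 and 3). The Mov10-/- mice carry a global deletion of several Mov10 exons, including those of the first helicase domain, made with the ubiquitous Actb-Cre. They are on a mixed genetic background and are the survivors of a partly lethal genotype. The libraries held stranded mRNA of a pair of testes each, so that they measure all cells of the testis together. In such bulk samples fewer cells of a type and less RNA per cell cannot be told apart. The comparison asked whether the transcripts of these genes differ in level between testes with and without MOV10, an RNA helicase that binds RNA in the cytoplasm.

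IZUMO1 sits in the membrane of the acrosome, the vesicle that covers the sperm head, and becomes exposed when the acrosome opens. It binds JUNO (gene Izumo1r) on the egg. SPACA6, TMEM95, DCST1 and DCST2 are other sperm membrane proteins without which sperm reach the egg membrane but do not fuse with it. IZUMO2, IZUMO3 and IZUMO4 share a domain with IZUMO1. CRISP2 is a cysteine-rich secretory protein held in the acrosome and the tail, and the genes of this kind are transcribed in late spermatocytes and in spermatids, the haploid cells that become sperm. In the mouse the first spermatids of life appear in the testis around this age.

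6 of the 9 genes stood lower in each of the 3 Mov10-/- libraries than in each of the 3 wild type libraries: Izumo1, Izumo2, Izumo3, Tmem95, Dcst1 and Dcst2. Their fitted levels were 5.17 to 8.78 times lower in Mov10-/- testes. Of the 20240 genes tested, 14.1% stood lower in each Mov10-/- library than in each wild type library. The groups overlapped for Spaca6, Izumo4 and Crisp2, which were 1.08 to 1.23 times lower. No member passed the threshold of the quasi-likelihood test of edgeR (adjusted p under 0.05 and a fold change over 2), and the 6 genes had adjusted p between 0.150 and 0.167. With the same threshold the exact test of edgeR called 6 members lower and DESeq2 called 5, where they called 5.09% and 4.98% of all genes lower. limma voom called 0 members.

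The genes lie on 6 chromosomes (coordinates in mm10, from the GENCODE annotation). Izumo1 (chr7:45621811-45628823, plus strand) and Izumo2 (chr7:44708742-44719844, plus strand) are 0.902 Mb apart. Izumo3 lies at chr4:92144329-92147234 on the minus strand and Izumo4 at chr10:80702184-80705373 on the plus strand. Tmem95 spans only 1335 bases at chr11:69876684-69878018, on the minus strand. Spaca6 (chr17:17827158-17843009, plus strand) and Crisp2 (chr17:40764020-40807003, minus strand) are 22.9 Mb apart. Dcst1 (chr3:89350219-89365253, minus strand) and Dcst2 (chr3:89361975-89377549, plus strand) overlap by 3279 bases, with no shared exonic base. They are 15.4 Mb from Mov10 itself.

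RefSeq gives Dcst1 and Dcst2 start sites that face away from each other on opposite strands, at base 89365253 of chromosome 3 for Dcst1 and at base 89365319 for Dcst2. The stretch between those starts is 65 bases long, and is printed because these neighbours had similar counts in each library (chr3:89365254-89365318, GRCm38.p6, the build of mm10, plus strand, 5′ to 3′).
Dcst1 and Dcst2: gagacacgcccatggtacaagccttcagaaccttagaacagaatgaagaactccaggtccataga
The GENCODE transcript of Dcst2 begins upstream of that site, inside Dcst1, so that the shared stretch rests on the RefSeq start.

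RefSeq promoter windows (250 bases before the start to 50 after it) were matched for 8 of the 9 genes, all but Izumo4. The 120 bases before the start are printed for Izumo1, from the group that stood lower, and for Spaca6, from the group that overlapped. They were chosen as the only windows of this length that held the letters marked below. Capitals mark the letters TGACGTCA in Izumo1, the full site of the cAMP response element (CRE) at which factors such as the spermatid activator CREM bind. In Spaca6 they mark GTTGCC read on the opposite strand, part of the X-box that RFX factors bind. Izumo1 is at chr7:45621691-45621810 and Spaca6 at chr17:17830855-17830974, both on the plus strand.
Izumo1: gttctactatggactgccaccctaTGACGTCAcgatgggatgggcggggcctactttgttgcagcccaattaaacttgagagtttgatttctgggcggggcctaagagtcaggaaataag
Spaca6: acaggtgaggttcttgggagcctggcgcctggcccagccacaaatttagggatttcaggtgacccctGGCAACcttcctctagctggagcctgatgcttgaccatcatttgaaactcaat
The CRE of Izumo1 began at position -96 from the start site, and the GTTGCC of Spaca6 at position -53. The RefSeq start of Spaca6, base 17830975, lies inside its GENCODE span, which begins at base 17827158. That of Crisp2, base 40794146, lies inside a span that begins at base 40807003 on the minus strand. The windows of these genes rest on the RefSeq start.

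6 motifs were searched on both strands in these 8 promoters and in 32851 promoters of the same length. The CRE core TGACG, which is contained in the full site, was present in Izumo1 and Tmem95 (at position -208), and in 20.8% of all promoters. The full TGACGTCA was present in Izumo1, and in 1.79% of all promoters. GTTGCC was present in Spaca6, and in 12.5% of all. The MYB core AACTG was present in 4 of the 8 (Dcst1, Dcst2, Izumo3 and Tmem95), and in 44.8% of all. The match in Dcst1 and that in Dcst2 are the same bases, because their windows overlap. CCAAT was present in Izumo1 and Izumo3 (37.4% of all) and TATAAA in Crisp2 (13.6% of all). No motif was shared by the 6 genes that stood lower. A match in these windows is a description of letters, and not a site shown to be bound.

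Mov10 was checked first. Its level was 27.6 ± 1.39 CPM in Mov10-/- testes and 110 ± 12.0 CPM in wild type (CPM being the count scaled to the library total with the TMM method, mean ± SD, n = 3 each), a log2 fold change of -2.0 (SE 0.12, adjusted p = 0.00552, edgeR quasi-likelihood test). Reads on genes numbered 5083407 to 9230540 per RNA-seq library, and a single read was worth 0.108 to 0.197 RPM. Mov10-/- replicate 3 was the shallowest, and 57.2% of its reads were not aligned, against 26.5% to 35.9% in the others. Nothing in the labels ties libraries to batches.

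Izumo1, the sperm ligand of JUNO, had 3.60, 8.84 and 4.94 CPM in Mov10-/- replicates 2, 3 and 4, and 23.6, 63.3 and 14.4 CPM in wild type replicates 1, 2 and 3. The highest Mov10-/- library was below the lowest wild type library, and wild type replicate 2 stood well above the other two. The log2 fold change was -2.57 (SE 0.60, unadjusted p = 0.00285, adjusted p = 0.150, edgeR quasi-likelihood test). By annotation, 21.9% of the exonic bases of Izumo1 overlap Rasip1 on the same strand. Rasip1 had 82 to 145 reads in the 6 libraries, and those of Izumo1 ranged from 29 to 462.

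Izumo2 had 1.49, 4.52 and 1.60 CPM in the Mov10-/- libraries, in the same replicate order, and 12.7, 29.9 and 7.52 CPM in wild type. The fitted difference was -2.76 on the log2 scale (SE 0.65, adjusted p = 0.150). Izumo3 had 3.47, 6.99 and 4.20 CPM in Mov10-/- against 23.7, 51.1 and 11.5 CPM in wild type, with a log2 fold change of -2.57 (SE 0.56, adjusted p = 0.150). Like Izumo1, both were highest in wild type replicate 2, and the groups did not overlap.

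Izumo4 lacks the membrane anchor of its relatives, and in the counts it stood apart from them too. It had 52.5, 85.5 and 73.2 CPM in Mov10-/- testes and 69.7, 85.2 and 76.9 CPM in wild type. The highest and the lowest library were both Mov10-/-. Mov10-/- differed from wild type by -0.14 on the log2 scale (SE 0.18, adjusted p = 0.720), and the interval of 2 SE around it ran from -0.50 to 0.22.

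Tmem95 had the largest difference of the 9 genes and, with Izumo2, the fewest reads in Mov10-/- testes. Its levels were 1.36, 3.91 and 1.48 CPM in Mov10-/-, from 11 to 19 reads, and 11.1, 37.4 and 8.92 CPM in wild type, from 83 to 273 reads. The lowest wild type library was 2.28 times the highest Mov10-/- library, the widest gap among the 9 genes. The log2 fold change was -3.13 (SE 0.70, unadjusted p = 0.00210, adjusted p = 0.150).

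Spaca6 had 47.1, 34.7 and 39.9 CPM in Mov10-/- against 49.6, 54.9 and 46.3 CPM in wild type. Mov10-/- replicate 2 lay just above wild type replicate 3, so that the groups overlapped by that library alone. Mov10-/- differed from wild type by -0.30 on the log2 scale (SE 0.15, adjusted p = 0.354, interval of 2 SE from -0.61 to 0.00). Its protein is needed for fusion as IZUMO1 is, and its wild type libraries differed by 1.19 times where those of Izumo1 differed by 4.40 times. By annotation Spaca6 has 16 transcripts, the longest of 4074 bases in 1 exon, and microRNA genes lie within it on the same strand. Counts per gene do not tell these transcripts apart, so that its level need not be that of the transcript for the fusion protein.

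Dcst1 had 3.23, 16.2 and 5.55 CPM in Mov10-/- testes and 28.3, 97.2 and 19.7 CPM in wild type. It had the narrowest gap of the 6 genes, with the lowest wild type library at 1.21 times the highest Mov10-/- library. The fitted difference was -2.58 on the log2 scale (SE 0.76, adjusted p = 0.167). Dcst2, its neighbour and partner in the sperm membrane, had 5.09, 15.2 and 7.28 CPM in Mov10-/- against 32.5, 88.5 and 18.8 CPM in wild type. Mov10-/- differed from wild type by -2.37 on the log2 scale (SE 0.63, adjusted p = 0.152).

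Within a library the reads of Dcst1 and Dcst2 stayed close to each other. The ratio of Dcst1 to Dcst2 reads was 0.634, 1.07 and 0.763 in Mov10-/- replicates 2, 3 and 4, and 0.870, 1.10 and 1.05 in wild type replicates 1, 2 and 3. The ratios of the genotypes overlapped, although each gene alone spanned 3.23 to 97.2 CPM and 5.09 to 88.5 CPM. These genes overlap on opposite strands, and the strand setting of the read counting is not given in the sources used here. By annotation, 24.2% of the exonic bases of Dcst1 overlap the pseudogene Gm10702 on the opposite strand, which had 3 to 11 reads in each library.

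Crisp2, the member of the acrosome and tail, had 109, 162 and 128 CPM in Mov10-/- testes and 134, 166 and 130 CPM in wild type. The highest wild type library and Mov10-/- replicate 3 were close to each other, and the groups overlapped. The log2 fold change was -0.11 (SE 0.16, adjusted p = 0.754, interval of 2 SE from -0.44 to 0.22).

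**Figure D1:**
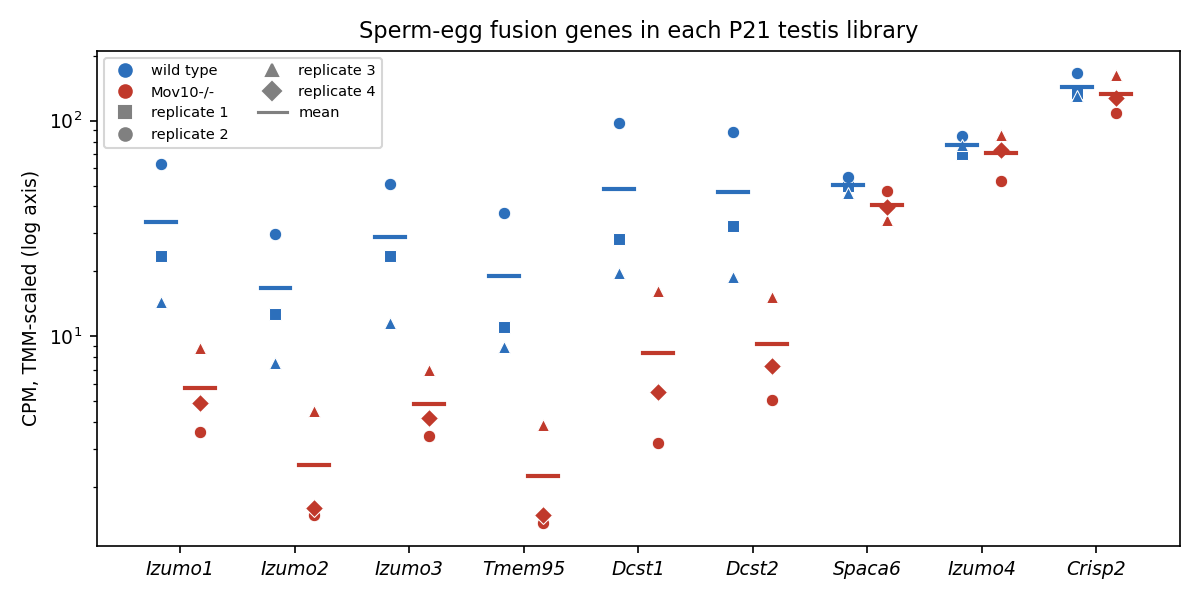
Level of each sperm-egg fusion gene in each library, in CPM with TMM scaling on a log axis. Each point is 1 library, with blue for wild type, red for Mov10-/-, shapes for replicate numbers and lines for the mean of 3. The red points lie below all blue points for the first 6 genes from the left, and the groups overlap for Spaca6, Izumo4 and Crisp2.

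By the quasi-likelihood test 0 members were called lower and 0 higher, and 0.00494% of the 20240 genes tested were called lower. An unadjusted p under 0.05 was reached by 6 members, all lower, and by 11.9% of all genes in that direction. A fitted level more than 2 times lower was found in the same 6 members and in 9.78% of all genes. Every Mov10-/- library was below every wild type library in these 6, and in 14.1% of all genes. The median log2 fold change of the 9 members was -2.57, against 0.03 over all genes tested.

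The tests differed on the members. The exact test of edgeR called all 6 lower, with adjusted p from 0.00241 (Izumo3) to 0.0213 (Dcst1), where it called 5.09% of all genes lower. DESeq2 called 5 of them, where it called 4.98% of all genes lower. The exception was Dcst1, with an adjusted p of 0.0774. limma voom called 0 members, and its adjusted p for the 6 genes were 0.253 to 0.254. Spaca6, Izumo4 and Crisp2 were called by none of these tests.

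1 library set much of the size of these differences. Without wild type replicate 2, the log2 fold changes of the 6 genes were -2.21 to -1.51 and the median of the 9 members was -1.57. Without Mov10-/- replicate 3, those of the 6 genes were -3.73 to -2.90. The sign of the 6 genes was negative in each of the 15 alternative settings.

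**Figure D2:**
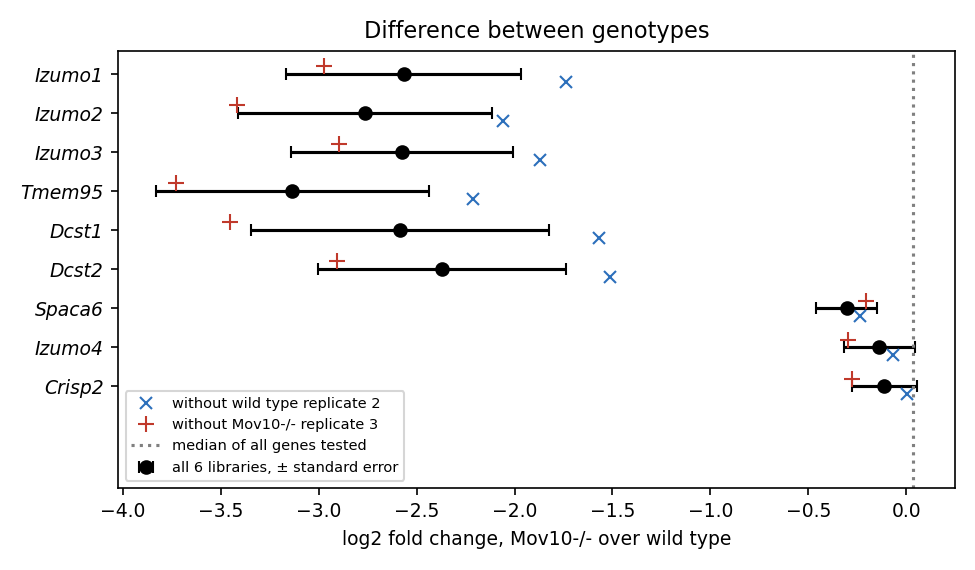
Log2 fold change of each member, Mov10-/- over wild type, with its standard error (black), without wild type replicate 2 (blue crosses) and without Mov10-/- replicate 3 (red plus signs). The dotted line marks the median of all genes tested, 0.03. The first 6 genes from the top lie between -3.73 and -1.51 in all 3 fits, and the other 3 lie near 0.

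The 6 genes shared 1 order of the libraries. Each was highest in wild type replicate 2, followed by wild type replicates 1 and 3 and then Mov10-/- replicates 3, 4 and 2. This order was found in 873 of the 20240 genes tested (4.31%). It requires each Mov10-/- library to be below each wild type library, the trait by which the 6 genes were grouped. That trait alone was found in 2858 of the genes tested, so that part of the shared order was fixed by the grouping. Within wild type, the highest library was 3.97 to 4.95 times the lowest for these 6 genes and 1.19 to 1.28 times for the other 3. Within Mov10-/- it was 2.01 to 5.04 times. The fitted difference between the genotypes was 5.17 to 8.78 times for the same 6 genes.

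Levels between genes were compared as RPKM (reads per kilobase of exons and per 1000000 reads, with TMM scaling). In wild type the order ran from Crisp2 (50.8 ± 6.96 RPKM, mean ± SD, n = 3) through Tmem95 (36.0 ± 29.9), Izumo4 (27.6 ± 2.76), Izumo2 (23.1 ± 16.1), Izumo3 (22.7 ± 16.0), Dcst2 (20.4 ± 16.2), Izumo1 (11.3 ± 8.68) and Dcst1 (9.23 ± 8.11) to Spaca6 (7.11 ± 0.616). No neighbours in that order differed beyond their spread, since the wild type ranges of each pair overlapped. In Mov10-/- testes Crisp2 was again at the top (47.1 ± 9.59 RPKM), and Izumo4 (25.2 ± 5.97) and Spaca6 (5.74 ± 0.882) came next. Spaca6 was the lowest of the 9 in wild type and stood 3rd in Mov10-/-. The remaining 6 followed, from Tmem95 (4.24 ± 2.70) to Dcst1 (1.59 ± 1.32). With the length of the longest transcript in place of all exonic bases, Izumo4 came before Tmem95, and Dcst1 moved from 8th to 6th in wild type.

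The level of a member was set against the mean of the other 8 on the log2 scale, and compared between genotypes by an exact two-sided permutation test over the libraries. 3 libraries against 3 cannot give a p below 0.1. The 9 differences sum to 0 by construction, so that they restate the split of the members and a member can be relatively higher while its own level is not. Crisp2 was higher relative to the others in Mov10-/- by 1.76, Izumo4 by 1.72 and Spaca6 by 1.54. Tmem95 was relatively lower, with a difference of -1.25, as were Izumo2 (-0.96), Izumo1 (-0.70) and Izumo3 (-0.70). In these 7 genes the groups did not overlap, and each had the smallest p possible, 0.1 (0.129 adjusted over the 9 comparisons). The share of all genes without overlap on this scale was not computed. Dcst1 (-0.87, exact p = 0.3) and Dcst2 (-0.53, exact p = 0.2) overlapped.

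Markers of the cells that express these genes differed between the same libraries. The 16 markers of round spermatids (the early haploid stage) were all tested. Their summed level was 334 to 589 CPM in Mov10-/- and 632 to 1462 CPM in wild type. In 13 of the 16, and in 14.1% of all genes, every Mov10-/- library was below every wild type library. The median log2 fold change of the 16 was -2.19, within a range of -3.51 to -0.28. Without wild type replicate 2 that median was -1.31. The elongating spermatid markers summed to 343 to 669 CPM in Mov10-/- and to 589 to 1486 CPM in wild type. For the 14 of them that were tested the median was -2.21, and 7 did not overlap. Their defining protamine and transition protein genes were at low levels, with Prm2 at 0.496 to 1.85 CPM in Mov10-/- and 1.61 to 58.9 CPM in wild type, where wild type replicate 2 was the highest. None of these markers was called by the quasi-likelihood test. By that test 14 of the 16 and 13 of the 14 had an unadjusted p under 0.05, all lower, where 11.9% of all genes did. The exact test called 9 of the 16 round and 9 of the 14 elongating spermatid markers lower, and 5.09% of all genes.

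The earlier germ cells differed less. The 14 pachytene spermatocyte markers (the long stage of meiosis before the spermatids) summed to 1611 to 2203 CPM in Mov10-/- and 1838 to 2077 CPM in wild type. Their log2 fold changes ran from -0.48 to 0.18 with a median of -0.06, and the groups overlapped for each of the 14. Hspa2, a chaperone of meiotic cells, was at 244 ± 62.4 CPM in Mov10-/- against 215 ± 19.0 CPM in wild type. Piwil1, which binds the small RNAs of this stage, was at 316 ± 73.9 and 291 ± 21.3 CPM. Adam32, a membrane protein gene of the Adam family, was at 163 ± 38.5 and 188 ± 29.1 CPM, and Sycp1, of the synaptonemal complex that joins paired chromosomes, at 191 ± 7.21 and 181 ± 7.76 CPM. The median of the 15 early meiotic and spermatogonial markers was 0.23. The part of these cell markers in the differences of the fusion genes was not tested.

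The 6 genes were next set against the mean log2 level of spermatid markers in the same library, and the outcome differed with the marker list. Against the 16 round spermatid markers the difference, Mov10-/- minus wild type, was -1.13 for Tmem95, -0.87 for Izumo2, -0.80 for Dcst1, -0.65 for Izumo1, -0.64 for Izumo3 and -0.50 for Dcst2. The groups did not overlap for any of these 6, and each had the smallest p that 3 libraries against 3 can give, an exact permutation p of 0.1 (0.113 adjusted over the 9 comparisons). The share of all genes without overlap on this relative scale was not computed, so that the count has no background beside it. Crisp2 and Izumo4 were higher relative to the markers, by 1.54 and 1.50, with the same p. Spaca6 was higher by 1.35 with overlapping groups (exact permutation p = 0.3). Against the 14 elongating spermatid markers, an alternative chosen after seeing the data, the groups overlapped for all 6 genes. The difference was -0.49 for Tmem95, -0.23 for Izumo2, -0.15 for Dcst1, -0.002 for Izumo1, 0.005 for Izumo3 and 0.15 for Dcst2, with exact permutation p from 0.2 to 1. Crisp2 and Izumo4 were higher against those markers too, by 2.19 and 2.15 (exact permutation p = 0.1, 0.3 adjusted over the 9 comparisons). In mean log2 level the round spermatid markers differed by -1.66 and the elongating spermatid markers by -2.31. A gene that does not differ between genotypes is therefore higher relative to either list by construction. The log2 fold changes of Crisp2 and Izumo4 themselves were -0.11 and -0.14, so that their relative values restate the difference of the markers. Tsga10, a centrosomal protein gene among the round spermatid markers of highest CPM, was at 165 ± 17.6 CPM in Mov10-/- and 201 ± 14.7 in wild type (log2 fold change -0.28). Actl7b, another of these and an actin-like protein gene of the sperm head, was at 74.0 ± 24.8 and 100 ± 30.4 CPM (-0.44). Both were nearer 0 than the median of their list, -2.19. Odf2, the elongating spermatid marker of highest CPM, was at 339 ± 78.8 and 334 ± 46.7 CPM (0.02), where the median of its list was -2.21.

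**Figure D3:**
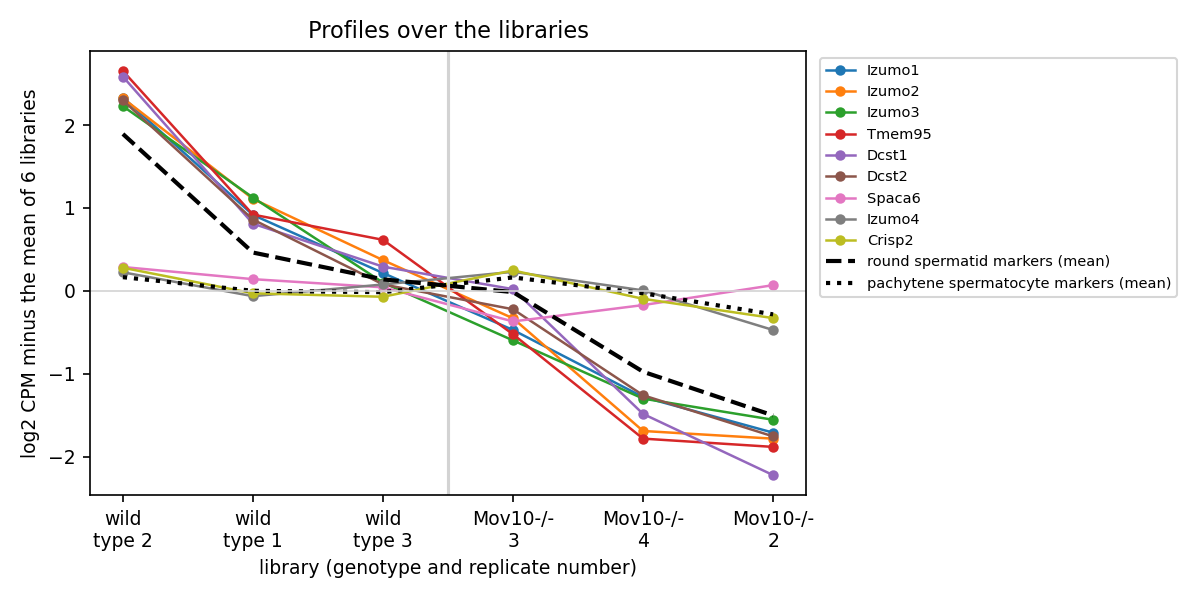
Profile of each member over the 6 libraries, as log2 CPM minus the mean of the 6, beside the mean profile of the round spermatid markers (dashed) and of the pachytene spermatocyte markers (dotted). Wild type libraries are on the left and Mov10-/- libraries on the right. Izumo1, Izumo2, Izumo3, Tmem95, Dcst1 and Dcst2 run from above 2 in wild type replicate 2 to below -1.5 in Mov10-/- replicate 2, beside the dashed line, and the other 3 stay near the dotted line.

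Somatic cells were represented in each library. The medians of the log2 fold changes were 0.33 over 10 Sertoli cell markers, 0.24 over 8 Leydig cell markers, 0.30 over 10 peritubular and endothelial markers and 0.38 over 9 macrophage markers. The 8 adipocyte markers, for fat that can adhere to a testis, summed to 62.1 to 99.9 CPM in Mov10-/- and 35.2 to 47.0 CPM in wild type, with a median of 0.79. In 4 of these 8 every Mov10-/- library was above every wild type library, as in 4 of the 10 Sertoli cell and 5 of the 10 peritubular and endothelial markers and in 11.9% of all genes. The exact test called 3 of the 8 adipocyte markers higher and 0.346% of all genes, and the quasi-likelihood test called none. Among them Cfd was at 11.2 ± 2.74 CPM in Mov10-/- against 1.26 ± 0.781 CPM in wild type. The epididymis markers, for the duct next to the testis, summed to 2.10 to 38.8 CPM in Mov10-/- and 19.1 to 24.2 CPM in wild type. Lcn8 and Lcn9 had no read. Adam7, Rnase9 and Lcn5 were highest in Mov10-/- replicate 2, at 20.2, 13.5 and 3.10 CPM. Without Rnase10, the only one of the 10 that passed the filter, the sums were 38.7, 1.85 and 1.97 CPM in Mov10-/- replicates 2, 3 and 4, and 2.0, 1.51 and 11.8 CPM in wild type replicates 1, 2 and 3. Crisp2 was lowest in Mov10-/- replicate 2, at 109 CPM, as was Izumo4. The part of the fat and epididymis markers in the results of the members was not tested.

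Among the relatives of Crisp2, Crisp1 was highest in Mov10-/- replicate 2. Crisp2 was lowest there, but so were Izumo4 and the mean of the pachytene spermatocyte markers. Crisp1, a secreted protein that coats sperm in the epididymis, had 70.1, 0.411 and 0.494 CPM in Mov10-/- replicates 2, 3 and 4, and 0.118, 12.7 and 24.6 CPM in wild type replicates 1, 2 and 3. Its groups overlapped (log2 fold change 0.93, SE 1.70, adjusted p = 0.801). 8 of the 12 relatives were tested. 2 of the 8 stood lower in each Mov10-/- library than in each wild type library, as 14.1% of all genes did, and the median over the 8 was -0.10. Glipr1l1, a sperm surface relative, was at 13.2 ± 2.79 CPM in Mov10-/- testes and 28.2 ± 9.05 CPM in wild type, a log2 fold change of -1.09 (SE 0.29, adjusted p = 0.154). Dcstamp, the relative of Dcst1 and Dcst2 that acts in the fusion of osteoclast precursors, had 0.411 to 2.73 CPM in Mov10-/- and 1.53 to 2.36 CPM in wild type (log2 fold change 0.07, SE 0.57).

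7 other sperm genes tied to fusion or to the membrane that takes part in it were all tested, with a median log2 fold change of -2.29. In 5 of them the groups did not overlap and Mov10-/- was lower, where the share over all genes was 14.1%. Ace3 had 5.82 ± 3.93 CPM in Mov10-/- against 44.8 ± 37.8 CPM in wild type (log2 fold change -2.99, SE 0.74, adjusted p = 0.150). Llcfc1, a sperm membrane protein also needed for fusion, had 4.09, 16.0 and 6.79 CPM in Mov10-/- testes and 23.9, 46.6 and 17.9 CPM in wild type (-1.74, SE 0.55, adjusted p = 0.182). 4930451I11Rik, Eqtn and Tmem190 were the other three, with log2 fold changes of -3.76, -2.65 and -2.29.

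The remaining pair of that list overlapped between genotypes. Tmem81, whose protein joins IZUMO1 and SPACA6 in a complex, had 12.2, 15.2 and 15.4 CPM in Mov10-/- against 18.8, 34.6 and 13.3 CPM in wild type (log2 fold change -0.64, SE 0.36, adjusted p = 0.397). Spesp1, a protein of the equatorial segment of the sperm head, had 107 ± 24.4 CPM in Mov10-/- testes and 130 ± 19.1 CPM in wild type (-0.29, SE 0.18, adjusted p = 0.456).

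Of the genes of the egg side, Izumo1r, which encodes JUNO, had 5 reads over the 6 libraries and was not tested. Cd9 and Cd81, tetraspanins that the egg needs and that many somatic cells also express, were at 23.6 ± 6.52 and 91.8 ± 7.67 CPM in Mov10-/- and at 19.3 ± 4.87 and 75.2 ± 4.46 CPM in wild type. Their log2 fold changes were 0.29 (SE 0.28, adjusted p = 0.615) and 0.29 (SE 0.11, adjusted p = 0.232). For Cd81 every Mov10-/- library was above every wild type library.

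The steps before fusion were represented by 14 acrosome genes and 14 genes of zona binding and sperm surface maturation. The median over the 14 acrosome genes, all tested, was -1.67 on the log2 scale. In 10 of them, and in 14.1% of all genes, every Mov10-/- library was below every wild type library. Spam1, the hyaluronidase of the sperm head, was at 5.75 ± 2.74 CPM in Mov10-/- against 37.0 ± 23.8 CPM in wild type (-2.71, SE 0.53, adjusted p = 0.150), and was chosen after its values were seen. Zpbp, a zona-binding protein of the acrosome, was at 86.9 ± 11.3 and 128 ± 19.6 CPM (-0.55, SE 0.14, adjusted p = 0.150), and Zpbp2, its relative, at 88.6 ± 20.2 and 98.5 ± 12.9 CPM (-0.16, SE 0.18, adjusted p = 0.669).

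Of the zona binding and maturation genes 13 were tested, with a median of -0.19. 3 of the 13 stood lower in Mov10-/- without overlap and 1 higher, where the shares over all genes were 14.1% and 11.9%. Adam2 and Adam3, membrane proteins that sperm need to pass from the uterus to the egg, were at 175 ± 34.8 and 207 ± 54.0 CPM in Mov10-/- and at 197 ± 25.7 and 228 ± 38.1 CPM in wild type. Clgn, the chaperone that folds them, was at 268 ± 41.6 and 281 ± 29.1 CPM. The groups overlapped for all 3. The exact test called 7 of the 14 acrosome genes, 5 of the 7 fusion-related genes and 1 of the 13 zona binding and maturation genes lower. It called 5.09% of all genes lower, and the quasi-likelihood test called none of the genes of these lists. An unadjusted p under 0.05 in that direction was reached by 11, 5 and 3 of them, and by 11.9% of all genes.

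**Figure D4:**
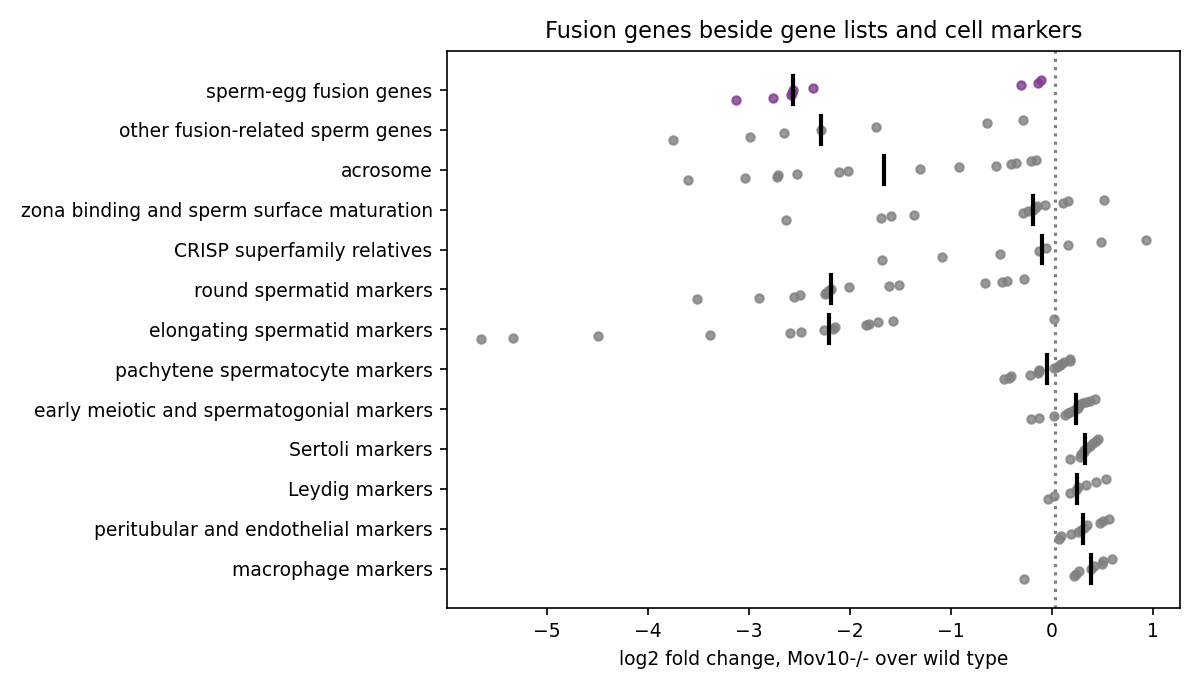
Log2 fold changes, Mov10-/- over wild type, of the 9 fusion genes (purple) and of the tested genes of 12 lists (grey), with the median of each list as a black bar and the median of all genes tested as a dotted line. Each point is 1 gene. The fusion genes fall into 6 points from -3.13 to -2.37 and 3 points from -0.30 to -0.11, and the spermatid lists extend to the left in the same way.

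Among 15572 protein-coding genes outside these lists, the 5 whose profile over the 6 libraries was most like the mean profile of the 9 members were Cd3d, Ttc39a, Kcnu1, Tbata and 4930415O20Rik. Their root mean square differences from it were 0.068, 0.093, 0.109, 0.111 and 0.118 on the log2 scale. Cd3d, a chain of the T cell receptor complex, was at 3.22 CPM in wild type and 0.741 CPM in Mov10-/-. Kcnu1, the subunit of the potassium channel of sperm, was at 59.9 CPM in wild type and 16.3 CPM in Mov10-/-. The members themselves differed from that mean by 0.343 (Dcst2) to 0.895 (Spaca6), because it lies between the 6 genes and the other 3.

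In MOV10 CLIP-seq of wild type P21 testes, which sequences RNA crosslinked to MOV10, none of the 9 genes had a read in any of the 4 libraries. These libraries had only 3404 to 4934 reads on genes, so that a count of 0 allows up to 3 counts, or 608 to 881 RPM. Replicates 1, 2 and 3 differed by less than the sampling noise and were counted as 1 sample. At their share of the wild type RNA-seq reads the 9 genes together (458 RPM) would have had 3.90 reads in these 2 samples. For single genes that number was 0.140 to 1.21 reads, so that binding of a single gene at its share in RNA was not detectable at this depth. For the 9 genes together the 3.90 reads were above the limit of 3 counts, and 0 were found.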

How the data were processed

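RNA-seq of P21 testes (3 Mov10-/- and 3 wild type libraries) and MOV10 CLIP-seq (4 wild type libraries) were used. Per the labels and the methods of the study, the authors trimmed adapters, aligned RNA-seq reads to mm10 with STAR and counted them per gene with htseq-count on Ensembl v99. The deposited values are raw counts per gene. The strand setting, and the edgeR test that the study used, are not given in the sources used here. Nothing says how the sources of the replicates were separated beyond a pair of testes each, so that p-values measure the spread between these libraries.

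Genes with more than 1 RPM in at least 3 of 6 libraries (20240) were fitted with edgeR 4.0.16 in R 4.3.3 (TMM, quasi-likelihood test, Benjamini-Hochberg over all genes tested). A gene was called at an adjusted p under 0.05 and a fold change over 2. Log2 CPM values used a prior count of 2. The alternatives were DESeq2 1.42.0, limma 3.58.1 (voom), other edgeR tests, other scalings and filters, leaving out each library in turn, and a replicate block. The edgeR tests, voom and DESeq2 were first tested on simulated data. Summary lines that name no gene stayed out of library totals. In RNA-seq, reads outside genes were 10.0% to 18.7%, ambiguous reads 0.479% to 0.752%, reads aligned more than once 4.07% to 7.56% and unaligned reads 26.5% to 57.2%, and in CLIP-seq 99.5% to 99.6% were unaligned. Coordinates and lengths came from GENCODE vM21, which matched 55240 of 55421 gene IDs, and promoters from RefSeq (GRCm38.p6). Ratios were compared by exact permutation in Python 3.11.15 with scipy 1.17.1. Depth was 5083407 to 9230540 reads on genes in RNA-seq and 3404 to 4934 in CLIP-seq. Limits for a count of 0 cover counting error only.

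The members and lists were chosen with earlier results of these data known. Of each list up to 4 genes were named, those called and otherwise those with the highest mean CPM, besides all members, Mov10 and the 5 genes of closest profile. Exceptions are 4930451I11Rik, Eqtn, Tmem190, Prm2, Lcn8, Lcn9, Adam7, Rnase9, Lcn5, Izumo1r, Spam1 and the overlapping Rasip1 and Gm10702, named after their values were seen.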

Additional observations from a re-analysis of the deposited data

How the results depend on the processing

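The log2 fold changes of Izumo1, Izumo2, Izumo3, Tmem95, Dcst1 and Dcst2 stayed negative in all 90 values from 15 alternatives, and 6 or 7 members had Mov10-/- below wild type without overlap when 1 library was left out, where 15.7% to 21.9% of all genes did with fewer libraries to separate. The cause of what changed was not tested. DESeq2 called 5 members lower, the exact test 6 and the likelihood ratio test 6, against 0 by the quasi-likelihood test, by voom and with each library left out. Genes called in all were 1 by the quasi-likelihood test, 6 with total count scaling, 10 with no filter, 1039 by DESeq2, 1101 by the exact test, 1187 by the likelihood ratio test, 2 by voom, and 0 to 2 with 1 library left out. The median log2 fold change of the members was -2.93 to -1.57 with 1 library left out, where -1.57 was without wild type replicate 2. The log2 fold change of Izumo4 ran from -0.30 to 0.03 and that of Crisp2 from -0.28 to 0.009 with 1 library left out. The sign turned positive for both (0.032 and 0.0090) without Mov10-/- replicate 2, and for Crisp2 (0.0058) without wild type replicate 2. With elongating in place of round spermatid markers as the reference, an alternative chosen after seeing the data, the relative differences of Izumo3 (0.0050) and Dcst2 (0.15) changed sign. With longest transcript lengths the wild type places in RPKM were Izumo4 2, Tmem95 3, Dcst1 6, Dcst2 7 and Izumo1 8.

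The genotypes share only the replicate numbers 2 and 3, and the labels tie no number to a litter or day. Deviations from the group means correlated at -0.463 and -0.344 between the libraries of the same number, and at -0.235 to 0.453 between those of other numbers. Deviations from a mean of 3 libraries sum to 0, so that these correlations cannot tell whether libraries of the same number share a litter or day. With a replicate block 184 genes were called and 0 members. Depth limits the CLIP-seq counts most, and after that Tmem95 and Izumo2, which had 11 to 22 reads in the Mov10-/- libraries.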
